A study of Arabidopsis thaliana with 9 samples.

Results

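Transcript levels in roots of 4-day-old wild-type Arabidopsis thaliana seedlings of the Col-0 accession were described from 3 single-channel expression arrays, out of 9 arrays in the study. The other 6 arrays came from roots of the same age and accession: 3 of a bHLH49 loss-of-function mutant and 3 of a line that overexpresses bHLH49, a basic helix-loop-helix transcription factor. Seedlings grew on Murashige and Skoog medium, and per the labels' protocols an antibiotic was used to select transgenic seeds. The labels name neither the mutant allele nor the promoter that drives the overexpression. The tissue label reads root, whereas the source label reads root tips, so how much of the root was taken is not settled. The labels call the arrays of a genotype repeats 1 to 3 and do not say whether they came from separate plants, so any p-value below reflects only how these arrays scatter, and that scatter may be technical.

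The values are log2 signals of probe sets, each a group of short probes designed against one transcript. All 38408 probe sets were ranked by their mean over the wild-type arrays, and the 16550 genes with a probe set of their own in the platform annotation were named. A gene's level is the mean of the log2 values of its probe sets, given with the SD over 3 arrays. Genes were placed in 4 tiers by the percentile of that mean among all probe sets. The lower tier lay under the 25th percentile (3.67), the intermediate tier between the 25th and the 75th (8.01), the upper tier between the 75th and the 95th (10.58), and the top tier at or above the 95th. Probes differ in how strongly they bind, so a rank orders probe-set signals and is not a count of molecules, and no fold is given between genes. The lower tier holds signals near the floor of the array, which were not measured against a background set.

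A seedling root is a growing organ in which a meristem feeds files of cells that elongate and then differentiate into root hairs, endodermis, phloem and xylem. Its cells rely on imported sugar, which glycolysis and the mitochondria respire, and they make wall polymers, secreted proteins and defence compounds at the soil surface. Roots of Arabidopsis and its relatives are known for ER bodies, compartments of the endoplasmic reticulum packed with beta-glucosidases that release toxic products when tissue is wounded.

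The named genes spanned log2 levels between 1.86 and 13.34, with a median of 5.66. The lower tier held 4817 of them (29.1%), the intermediate tier 7933 (47.9%), the upper tier 3251 (19.6%) and the top tier 549 (3.32%). Named genes were thus less frequent in the top tier than probe sets in general, of which it takes 5% by definition. The probe sets that the annotation does not list had a median of 5.99, and the highest mean of any probe set was 14.12. The histogram of levels had a peak of dim genes under 3.67 and a broad shoulder above it. The median of a wild-type array lay at 5.85 to 5.87 and its maximum at 14.09 to 14.14, and pairs of these arrays correlated across probe sets at 0.991, 0.991 and 0.992 (Pearson's r across probe sets, which are not independent replicates).

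**Figure D1:**
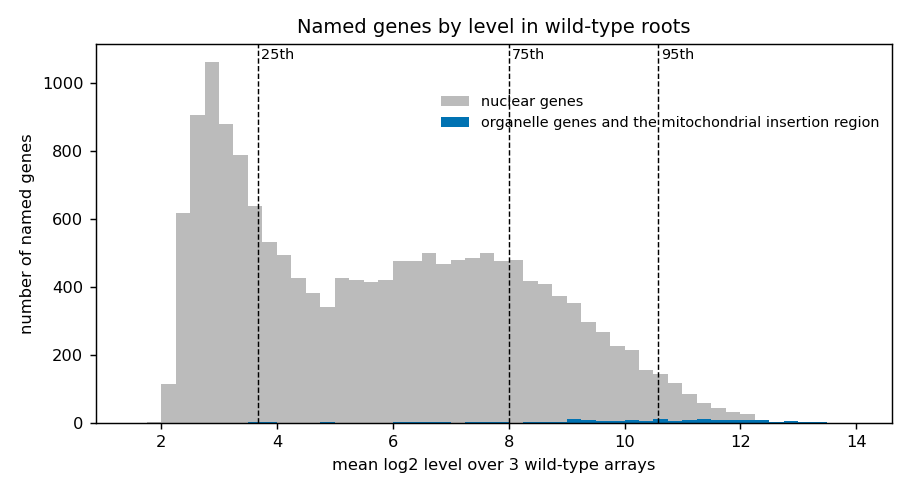
Number of named genes (vertical axis) by mean log2 level over the 3 wild-type arrays (horizontal axis, bins of 0.25). Grey bars are nuclear genes and blue bars, drawn in front, are organelle genes and genes of the mitochondrial insertion on chromosome 2; dashed lines mark the 25th, 75th and 95th percentiles of all probe sets at 3.67, 8.01 and 10.58.

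Organelle genes took a large part of the top of the list. All 18 named genes assigned to the mitochondrion stood in the top tier, with a median level of 12.12. Of 63 plastid-encoded genes, 39 did (61.9%), with a median of 11.12. Among 16418 nuclear genes outside the insertion described next, 478 did (2.91%), with a median of 5.62. A stretch of chromosome 2 carries a copy of much of the mitochondrial genome. The 51 named genes there, AT2G07660 to AT2G07840 in locus order, had a median of 9.59, with 14 in the top tier (27.5%). Probes for these genes can bind transcripts of the near-identical mitochondrial copies, so their levels are uncertain as levels of nuclear genes.

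The 30 named genes with the highest means comprised 13 nuclear, 10 plastid-encoded, 5 mitochondria-encoded and 2 insertion genes. AT2G07741, an insertion gene, headed the list with 13.31, 13.34 and 13.37 on wild-type arrays 1, 2 and 3. The ribosomal protein gene rpl2, counted as mitochondrial by its symbol and lack of a matched locus, followed with 13.22, 13.12 and 13.25. After it came cox1, a core subunit of cytochrome oxidase, with 13.10, 13.16 and 13.14. AT2G07741 lay above both on every array, while the values of rpl2 and cox1 overlapped. The mitochondrial nad4L (12.94 ± 0.03), nad4 (12.39 ± 0.03) and nad7 (12.38 ± 0.04), subunits of respiratory complex I, completed the mitochondrial group, and AT2G07707 of the insertion averaged 12.51 ± 0.03 (SD, n = 3). At the low end of the mitochondrial genes stood nad1 at 10.63 and ccb382, a cytochrome c maturation gene, at 10.75.

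The plastid genes in the 30 served translation, photosynthesis and other plastid work. For translation, rpl14 averaged 13.00 ± 0.05, rpl20 12.73 ± 0.01 and rpl16 12.46 ± 0.07. The photosynthesis genes were atpH of the plastid ATP synthase at 12.95 ± 0.03, psbA of photosystem II at 12.76 ± 0.12, psaI and psaB of photosystem I at 12.51 ± 0.04 and 12.47 ± 0.03, and petG of the cytochrome b6f complex at 12.38 ± 0.09. The protease subunit gene clpP averaged 12.39 ± 0.06 and accD, of fatty acid synthesis, 12.34 ± 0.02. Not every plastid gene was bright: psbT (6.73 ± 0.27) and psbM (6.85 ± 0.22), small photosystem II subunits, were in the intermediate tier.

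Among nuclear genes, PYK10 had the highest level, with 13.04, 12.99 and 13.07 on wild-type arrays 1, 2 and 3. It encodes the beta-glucosidase that fills root ER bodies. Next came AT2G43150, a proline-rich extensin-like wall protein gene, with 13.00, 13.00 and 13.03, and AT3G48140, which encodes a B12D-like protein, with 12.95, 13.00 and 13.00. The values of these 3 genes overlapped, so their order is not resolved by 3 arrays. Cytosolic ribosomal proteins followed: AT4G29410 (large subunit protein L28) averaged 12.83 ± 0.05, AT4G16720 (L15) 12.81 ± 0.06 and AT3G04840 (small subunit protein S3a) 12.69 ± 0.09. COB, or COBRA, a membrane-anchored wall protein that orients cell expansion in the root, averaged 12.63 ± 0.03, with 12.64, 12.65 and 12.60 on the 3 arrays. NAI2, needed to form ER bodies, averaged 12.50 ± 0.02 and the class III peroxidase PRXR1 12.47 ± 0.04.

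AT4G32470, a small subunit of mitochondrial complex III, was close to constant on the wild-type arrays at 12.38, 12.37 and 12.38. The mutant arrays varied more, with 12.27, 12.33 and 12.43. The acid phosphatase gene AT5G44020 averaged 12.37 ± 0.04, AT1G16180, of the serinc membrane protein family, 12.31 ± 0.03, and AT5G21090, a leucine-rich repeat protein gene, 12.30 ± 0.02. Across the 30 genes, 25 of the 29 neighbouring pairs had overlapping values on the wild-type arrays. The order was clean at 4 steps: AT2G07741 above rpl2, cox1 above PYK10, nad4L above AT4G29410, and COB above AT2G07707.

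**Figure D2:**
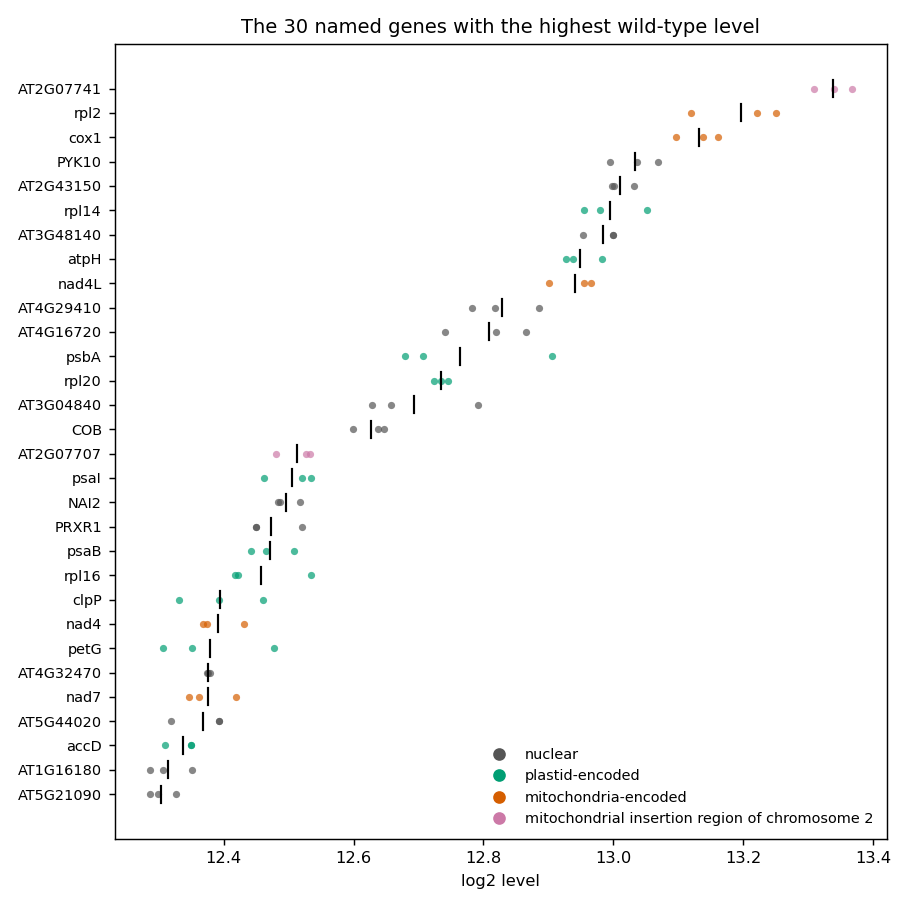
Log2 level (horizontal axis) of the 30 named genes with the highest wild-type mean, 1 gene per row from the highest at the top. Points are the 3 wild-type arrays, coloured by where the gene is encoded, and black ticks are their means; the levels fall between 13.34 and 12.30 and most neighbouring rows overlap.

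The same 30 genes stayed bright in single arrays and in the other genotypes. Each wild-type array on its own ranked 29 of them among its 30 highest named genes. The same arrays had set the ranking, so this count follows in part from that choice. By the means of the mutant arrays, 28 of them were among the 30 highest, and by those of the overexpressor arrays 29. The largest shift of any of the 30 means was 0.147 in the mutant and 0.148 in the overexpressor. The shift of 0.148 belonged to PYK10 (13.18 ± 0.03 in the overexpressor and 13.03 ± 0.04 in wild type; limma adjusted p = 0.249).

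Further nuclear genes just under these 30, chosen after their values were seen, repeated a few kinds of function. The vacuolar proton pump was represented by AT3G42050 (subunit H, 12.22 ± 0.04) and AT4G26710 (subunit e, 12.20 ± 0.04). Mitochondrial energy conversion gave AT5G47030, the delta subunit of ATP synthase, at 12.22 ± 0.01, AT2G20360 of complex I at 12.19 ± 0.02, and the pyruvate dehydrogenase genes AT3G13930 (E2 subunit, 12.13 ± 0.02) and MAB1 (E1 beta subunit, 12.01 ± 0.03). Membrane traffic gave AT1G30630, coatomer subunit epsilon, at 12.20 ± 0.09 and the Golgi GTPase gene RAB6A at 12.17 ± 0.01. The class III peroxidases AT3G32980 (12.20 ± 0.05) and AT4G33420 (12.05 ± 0.03) also stood there, as did the translation factor gene AT5G19510 (12.18 ± 0.03) and TMT1, a vacuolar sugar carrier, at 12.07 ± 0.02.

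At the other end, the 10 named genes with the lowest means lay between 1.86 and 2.07. AT2G22345 had the lowest, with 1.89, 1.88 and 1.81 on wild-type arrays 1, 2 and 3. LURE1.4, of the peptides by which ovules attract pollen tubes, had 2.13, 2.03 and 2.03. Also among them were AT2G30925, AT2G35830, AT1G77160, AT3G42565, AT2G12280, AT5G27310 and AT3G03828. No detection call was used, so whether these transcripts were present cannot be said.

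Gene sets were then placed by the median level of their members, all measured on the same arrays. The families hold only measured genes found by words in their symbols. Other members may be missing, so a family median need not stand for the whole family. The lists of energy metabolism, the proton pump and ER bodies were written after genes of each had been seen near the top, so their high medians follow in part from that choice and are given as a description. Of 19 listed genes of cytosolic glycolysis, 8 were measured, with a median of 11.50, and 6 of the 8 were in the top tier. GAPC2, glyceraldehyde-3-phosphate dehydrogenase, averaged 12.01 ± 0.11, with 11.92, 11.98 and 12.13 on the 3 arrays. The pyruvate kinase genes AT5G56350 (11.98 ± 0.03) and AT3G52990 (11.84 ± 0.06) and the triose phosphate isomerase gene TPI (11.75 ± 0.10) were close to it. AT5G63680, another pyruvate kinase gene, was at 4.14 ± 0.06, so close relatives ranged over most of the scale.

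Nuclear genes for mitochondrial complex III and ATP synthase had a median of 11.004 over 17 of 23 measured, with 9 in the top tier. Besides AT4G32470 and AT5G47030, the processing peptidase subunits AT1G51980 (11.94 ± 0.03) and MPPBETA (11.85 ± 0.03), which in plants are part of complex III, were bright. AT5G25450, a second gene for the subunit that AT4G32470 encodes, was at 3.88 ± 0.04. The ATP synthase beta subunit is encoded by the near-identical copies AT5G08670 (10.45), AT5G08680 (11.11) and AT5G08690 (7.70), whose probes may share signal, so their separate levels are uncertain.

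For the mitochondrial pyruvate dehydrogenase and citric acid cycle the median was 10.37 over 18 of 37 measured, with 8 in the top tier. AT2G20420, a succinyl-CoA ligase subunit gene, averaged 11.65 ± 0.02, SDH1-1 of succinate dehydrogenase 11.04 ± 0.06 and the isocitrate dehydrogenase genes IDH-VI and IDH-V 10.77 ± 0.03 and 10.70 ± 0.05. Within pairs of isoforms the levels split: SDH1-2 was at 7.86 ± 0.08, IDH-III at 4.34 ± 0.12 and SDH2-3, known as a seed form, at 3.46 ± 0.05, against 9.13 ± 0.03 for SDH2-2. For the vacuolar proton pump the median was 9.85 over 11 of 28 measured, with 5 in the top tier and 0 in the lower tier. Its membrane subunits VHA-A1 of the trans-Golgi network, VHA-A3 and VHA-A2 of the vacuole averaged 10.87 ± 0.06, 10.79 ± 0.09 and 9.67 ± 0.04.

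ER bodies and their partners had a median of 10.20 over 11 of 17 measured. PYK10 and NAI2 were joined in the top tier by BGLU21 (11.84, 11.997 and 11.90 on the 3 arrays), BGLU22 (11.46 ± 0.04) and the jacalin lectin gene JAL34 (10.88 ± 0.04). NAI1, the transcription factor that switches ER body genes on, was at 7.10 ± 0.09, in the intermediate tier. The jacalins JAL31 (7.51 ± 0.05), JAL22 (6.93 ± 0.04), JAL33 (4.97 ± 0.11) and JAL23 (3.44 ± 0.12) fell through the intermediate tier into the lower one. Across the 24 beta-glucosidase genes measured here, the median was 4.57, with 7 in the lower tier. In the top tier were 3, the root ER body enzymes PYK10, BGLU21 and BGLU22.

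Protein turnover and membrane traffic families mixed bright and dim members. UBP genes, which remove ubiquitin, had a median of 8.74 over 12 and none in the lower tier, between 10.17 for UBP23 and 6.32 for UBP22. SEC genes of the secretory route had a median of 8.62 over 15. AT3G63460, a COPII coat protein of the SEC31 type, averaged 11.61 ± 0.01 and KEU, which acts in membrane fusion at the cell plate, 11.08 ± 0.05, against 3.59 ± 0.19 for the second SEC31 gene, AT1G18830. PRA1 genes, whose products act on Rab GTPases, had a median of 8.33 over 16, between PRA1.B6 (10.68) and PRA1.F1 (2.71). VPS genes of vacuolar sorting had 10 of 14 members in the intermediate tier, with a median of 7.18 and SNF7.2 highest at 10.13 ± 0.09.

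Reference genes used for quantitative PCR ran through the upper tier and beyond it, with a median of 8.47 over 10 of 20 measured. GAPC2 was the brightest, followed by AT2G28390 (10.09 ± 0.06), AT4G34270 (9.83 ± 0.04) and the tubulin gene TUB6 (9.76 ± 0.14). PEX4 (AT5G25760), a peroxisome biogenesis gene, had 8.36, 8.40 and 8.51 on the 3 arrays, and AT4G26410 8.50, 8.50 and 8.54. AT5G55840, with 4.48, 4.27 and 4.09, was the dimmest of the 10 and had the largest SD among them (0.195). The smallest was that of AT2G32170, at 8.43 ± 0.01. Their limma adjusted p-values lay at or above 0.0969 (GAPC2) in the overexpressor and 0.605 (PEX4) in the mutant. GAPC2 was not called, yet its overexpressor values of 12.32, 12.34 and 12.25 lay above its wild-type values of 11.92, 11.98 and 12.13. The difference was 0.29 ± 0.07 (SE).

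Regulators had middling medians with wide spans. The bZIP factors had a median of 7.01 over 23, with BZIP61 (10.45 ± 0.02), AT2G40620 (10.41 ± 0.03) and BZIP53 (10.33 ± 0.09) highest and bZIP43 lowest at 2.28. IQD genes, whose products bind calmodulin and many of them microtubules, had a median of 7.63 over 17, led by IQD31 (9.87 ± 0.02). U-box PUB genes, ubiquitin ligases, had a median of 5.41 over 10, with PUB23 (9.62 ± 0.03) and PUB22 (8.08 ± 0.12) highest.

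Wall and surface families followed. Expansins, which loosen walls, had a median of 5.72 over 24, with EXPB1 at 11.24 ± 0.01, EXPA18 at 10.58 ± 0.14 and EXPA9 at 10.44 ± 0.09, and EXP26 lowest at 2.47 ± 0.62. XTHs, which cut and rejoin xyloglucan, had a median of 5.26 over 10, none above the intermediate tier, with XTH21 (7.72 ± 0.13), XTH26 (7.496 ± 0.32) and EXGT-A3 (7.06 ± 0.03) highest and XTH20 lowest (3.23 ± 0.26). TBL genes, many of which acetylate wall polysaccharides, had a median of 7.41 over 24, led by TBL39 (10.39 ± 0.03), TBL32 (10.25 ± 0.06) and TBL25 (9.49 ± 0.07). Tetraspanins had a median of 5.003 over 12, led by TET8 (9.60 ± 0.08), and serine carboxypeptidase-like genes one of 5.38 over 32, led by SCPL49 (11.14 ± 0.03), SCPL34 (11.08 ± 0.05) and scpl28 (10.76 ± 0.05).

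Families of specialised metabolism, transport and signalling came next. UDP-glycosyltransferases had a median of 4.95 over 55, with UGT85A2 (10.85 ± 0.04), UGT76B1 (10.29 ± 0.18) and UGT72E1 (10.19 ± 0.19) highest and UGT84B1 lowest (2.36 ± 0.05). Glutathione S-transferases had a median of 6.06 over 14, with GSTU26 far above the rest at 11.43 ± 0.06, then GSTU22 (9.24 ± 0.18) and GSTL3 (8.92 ± 0.04). Cytochromes P450 had a median of 3.41 over the 25 measured here, 15 of them in the lower tier, and CYP71B29 was the brightest at 8.59 ± 0.04. SWEET sugar transporters had a median of 3.60 over 16. SWEET16 (9.03 ± 0.10), SWEET2 (7.98 ± 0.08) and SWEET17 (6.63 ± 0.18), which sit in the vacuolar membrane, were the 3 brightest. Glutamate receptor-like genes had a median of 4.53 over 10, led by GLR3.5 (7.68 ± 0.07), GLR3.3 (6.87 ± 0.13) and GLR3.6 (6.72 ± 0.12).

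Peptide genes were the last group. Small signalling peptides had a median of 4.82 over 37, with RALFL32 (8.43 ± 0.15), RALFL31 (7.79 ± 0.05) and RALFL34 (7.77 ± 0.07) highest and RALFL30 lowest (2.28 ± 0.09). The defensin-like LCR, SCRL and PDF genes had a median of 2.63, and 73 of 83 lay in the lower tier (88.0%), against 29.1% of all named genes. Against that floor, LCR69 had 11.32, 11.13 and 11.32 on the 3 wild-type arrays, LCR68 10.70, 10.68 and 10.67, and PDF2.5 10.51, 10.56 and 10.60. The next member, LCR37, averaged 6.73 ± 0.28, so these 3 stood apart from the other 80 by a wide gap, and LCR16 was lowest (2.11 ± 0.14). The difference between families was not tested, since the families were chosen with levels known.

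**Figure D3:**
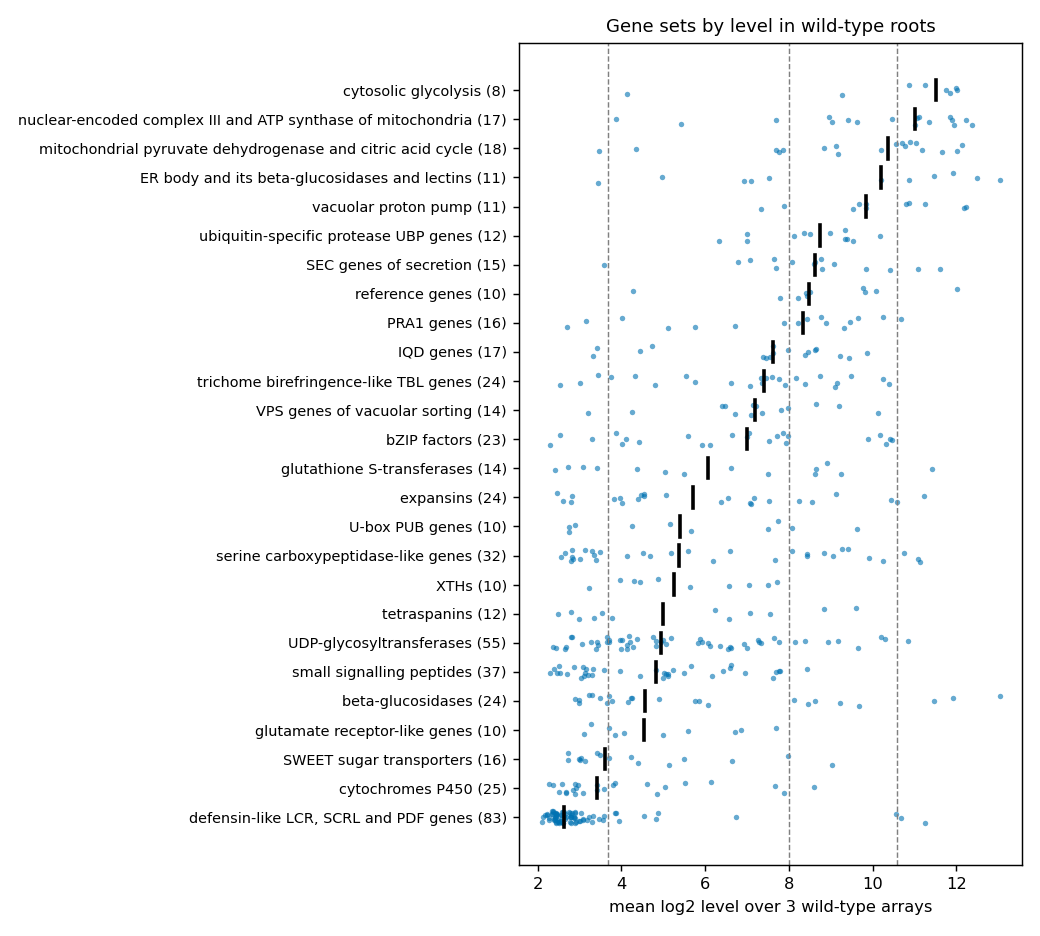
Mean log2 level over the 3 wild-type arrays (horizontal axis) of each measured gene (blue points, shifted up or down only for visibility) in the gene sets reported here that had 8 or more measured members, with the number measured in brackets. Black bars are set medians, which run between 11.50 for cytosolic glycolysis and 2.63 for the defensin-like genes; dashed lines are the tier bounds at 3.67, 8.01 and 10.58.

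Cell type markers were covered thinly, since few listed genes had a probe set of their own. Of 9 root hair genes, 4 were measured and all were in the upper or top tier. EXPA18 had 10.61, 10.70 and 10.43, EXPA7 9.14, 9.19 and 9.03, and the root hair peroxidase genes AT4G26010 and AT1G30870 averaged 10.45 ± 0.10 and 9.12 ± 0.09. As these are bulk samples, fewer cells of a type and less RNA per cell cannot be told apart. GSO1, a receptor kinase of the endodermis, was at 9.94 ± 0.05, JKD of the ground tissue at 10.08 ± 0.06, LHW of the vascular tissue at 8.30 ± 0.04 and BBM of the stem cell niche at 5.83 ± 0.24. GSO1 was the 1 measured of 8 listed endodermis genes. These markers do not settle whether whole roots or tips were taken.

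Of the lateral root genes, LBD29 (7.64 ± 0.07) and LBD16 (7.58 ± 0.05) were intermediate and PUCHI (3.32 ± 0.09) was in the lower tier. The root cap polygalacturonase gene AT1G65570 was intermediate at 6.60 ± 0.12, and SWEET11, listed for phloem, was at 4.24 ± 0.11. Of 7 shoot markers, 2 were measured, RCA (rubisco activase) at 7.54 ± 0.06 and LHCB4.1 (a chlorophyll-binding antenna protein) at 6.53 ± 0.17, both in the intermediate tier and neither at the floor. Their part in the plastid gene levels was not tested. VGD1, a pollen pectin methylesterase, was at 2.65 ± 0.20. None of the listed xylem or seed storage genes had a probe set of its own, and they were not analysed here.

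How far the 3 wild-type arrays differed depended on the level. Over all probe sets, the median SD was 0.156 in the lower tier, 0.132 in the intermediate, 0.0615 in the upper and 0.0501 in the top tier. The same order was seen in the samples that the ranking did not use, with 0.156, 0.136, 0.0736 and 0.0620 in the mutant and 0.150, 0.130, 0.0612 and 0.0483 in the overexpressor. The spread was not greatest at the floor. In bins of 5 percentiles of all probe sets it peaked between the 25th and 30th percentile, at 0.197 in wild type, and was 0.139 in the dimmest bin. For the named genes alone, the wild-type medians were lower, at 0.128, 0.100, 0.0556 and 0.0405 from the lower to the top tier. Among named genes, the SD exceeded 0.5 for 31 in the lower tier (0.644% of that tier) and 51 in the intermediate (0.643%). It did so for 3 in the upper tier (0.0923%) and 0 in the top tier. Over all probe sets, the shares from the lower to the top tier were 7.54%, 6.84%, 0.221% and 0.104%. For 66.7% of named genes the 3 wild-type values fell within 0.25 of each other, and for 69 they spanned more than 1, of which 3 were in the upper or top tier.

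**Figure D4:**
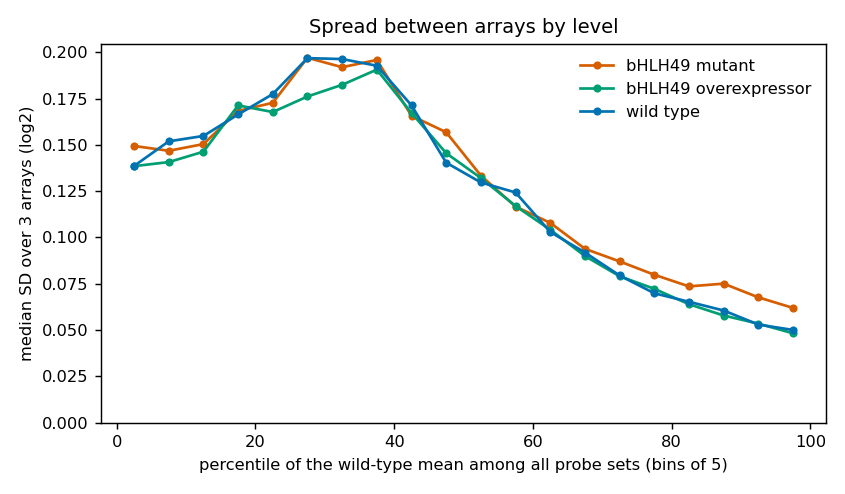
Median SD over the 3 arrays of a genotype (vertical axis, log2) in 20 bins of the percentile of the wild-type mean among all probe sets (horizontal axis), for the bHLH49 mutant, the bHLH49 overexpressor and wild type. All 3 lines peak between the 25th and 40th percentile (0.197 in the mutant, 0.191 in the overexpressor and 0.197 in wild type) and decline to 0.0620, 0.0483 and 0.0501 in the brightest bin.

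The spread of a gene in wild type was weakly related to its spread in the other genotypes. Over the 7946 named genes at or above the 50th percentile, Spearman's rho between the SD of mutant and of wild type was 0.222, and between overexpressor and wild type 0.240. These are descriptions across genes, which share the dependence on level. Of the named genes, 227 had identical values on the 3 wild-type arrays, and an SD of 0 there is no measure of stability beyond these arrays. The 10 with the highest level among them were ACYB-2, a cytochrome b561 gene (11.16), AT2G31490 (10.90), AT1G27435 (10.90), AT1G28510 (10.56), AT4G02100 (10.43), AT1G18270 (10.05), the carboxylesterase gene CXE16 (10.02), AT3G58580 (9.95), AT2G47960 (9.93) and AT4G23860 (9.33).

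Over all 9 arrays, which gives a broader view of steadiness, the named genes at or above the 75th percentile with the smallest range were others, picked after their values were seen. AT1G09660, an RNA-binding protein gene, spanned 0.0125 around 9.89, and NIG, a GTPase gene, 0.0268 around 10.63. AT1G67430, of large ribosomal subunit protein L17, spanned 0.0333 around 11.51. Tied values enter this list too, since the SD of NIG over the mutant arrays was 0.0000.

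The 10 most variable named genes at or above the 50th percentile were AT2G01023, AT2G07691, AT5G04120, AT1G05700, AT2G07692, GH3.3, AT3G12900, AT2G16005, AT5G44600 and AT2G25150. In AT2G01023 a single array stood apart: it had 6.33, 8.93 and 9.39 on wild-type arrays 1, 2 and 3, while the mutant arrays lay at 9.56, 9.50 and 9.45 and the overexpressor arrays at 9.23, 9.69 and 8.997. Its mean of 8.22 ± 1.65 therefore describes none of the wild-type arrays well. AT2G07691, in the mitochondrial insertion, had 6.06, 7.09 and 7.47, and AT2G07692, its neighbour, 5.67, 6.74 and 6.86, again with array 1 lowest.

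The others differed in which array was apart. GH3.3, an enzyme that conjugates auxin to amino acids, had 7.08, 6.53 and 7.68 on the wild-type arrays. These lay below 7.95, 8.00 and 8.00 in the mutant and 8.58, 8.71 and 8.50 in the overexpressor. GH3.3 was not called in the mutant (change 0.89 ± 0.25 SE, limma adjusted p = 0.443). It rose in the overexpressor by 1.50 ± 0.25 (SE; limma adjusted p = 0.0322), a call lost without wild-type replicate 1 or without any 1 of the 3 overexpressor arrays. AT1G05700, a receptor-like kinase gene, had 6.70, 5.996 and 7.37, and AT3G12900, the scopoletin 8-hydroxylase of iron-deficient roots, 5.64, 5.54 and 6.58. On array 3, AT2G16005, a lipid-recognition domain protein gene, was lowest with 9.55, 9.71 and 8.65, as were AT2G25150, an acyltransferase gene, with 6.58, 6.88 and 5.81, AT5G04120 with 7.55, 7.86 and 6.49, and AT5G44600 with 6.07, 6.35 and 5.26.

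AT2G16005 and AT2G25150 also rose in the overexpressor, by 2.02 ± 0.33 and 1.62 ± 0.24 (SE; limma adjusted p = 0.0309 and 0.0212). The first call was lost without any 1 of the 6 arrays compared, and the second without wild-type replicate 1 or any 1 of the overexpressor arrays. For these genes the wild-type arrays thus varied by more than those of most named genes while also serving as the baseline.

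**Figure D5:**
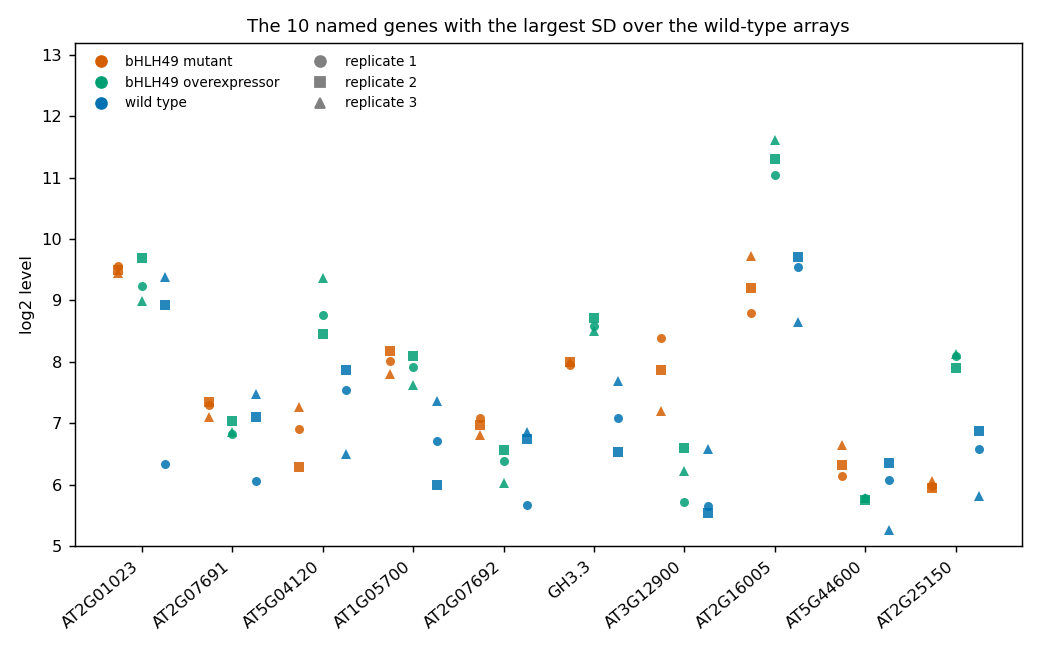
Log2 level (vertical axis) of the 10 named genes at or above the 50th percentile with the largest SD over the wild-type arrays, with the bHLH49 mutant, the bHLH49 overexpressor and wild type drawn left to right for each gene and a marker shape for each replicate number. AT2G01023 on wild-type array 1, at 6.33, stands below its other 8 values, which lie between 8.93 and 9.69.

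Most organelle genes were lowest on wild-type array 1 and highest on array 3. Array 1 held the lowest of the 3 values for 13 of 18 mitochondria-encoded genes, 38 of 63 plastid-encoded genes and 31 of 51 insertion genes (72.2%, 60.3% and 60.8%), against 33.2% of the 16323 named genes that differed between the arrays. Array 3 held the highest value for 16, 45 and 37 of them (88.9%, 71.4% and 72.5%), against 29.8% of those named genes. The top tier as a whole, which holds many of these genes, leaned the same way, with 43.6% of its 546 genes that differed lowest on array 1 and 44.5% highest on array 3. The shifts were mostly small, with median deviations on array 3 of 0.048, 0.044 and 0.078 from the gene's mean, but cox2, a mitochondrial oxidase subunit gene, had 10.79, 11.24 and 11.50. Genes of one organelle share that organelle and are not independent of each other, and the part of these shifts in the ranks was not tested.

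The wild-type tiers were carried over to the other genotypes. Of the 549 top-tier genes, 528 (96.2%) were also top-tier by the mutant means and 522 (95.1%) by the overexpressor means. Of the 4817 lower-tier genes, 4679 (97.1%) and 4649 (96.5%) were again in the lower tier. Gene means correlated at 0.997 for mutant and wild type and at 0.996 for overexpressor and wild type (Spearman's rho across genes).

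Changes between genotypes were tested with limma on all 9 arrays, with p-values adjusted over all 38408 probe sets by Benjamini-Hochberg and called under 0.05. Both comparisons share the wild-type arrays, which also set the tiers. For overexpressor against wild type, 520 probe sets were called, 286 higher and 234 lower, which is 1.35% of those tested (0.745% and 0.609%). Of the probe sets with 1 gene, 14 in the lower tier (0.289%), 170 in the intermediate (2.12%), 70 in the upper (2.13%) and 8 in the top tier (1.42%) were called. Over all probe sets, to which the background of 1.35% belongs, the shares were 0.281%, 1.65%, 1.99% and 1.2%. The top tier was thus near that background and the lower tier under it. Among all called probe sets, the median size of change was 0.967, 0.705, 0.517 and 0.410 on the log2 scale, from the lower to the top tier. Only called changes enter these medians, and the scatter that a call must exceed was also smaller in brighter tiers. Over all probe sets, called or not, the median size was 0.111, 0.124, 0.075 and 0.062. For mutant against wild type, 9 probe sets were called (0.0234% of those tested), 6 higher (0.0156%) and 3 lower (0.00781%), or 6 higher and 5 lower with arrays centred on their medians, and of the probe sets with 1 gene only AT5G35940, a jacalin lectin gene of the upper tier. It had 7.76, 7.96 and 8.10 in the mutant and 9.18, 9.39 and 9.43 in wild type, and fell by 1.39 ± 0.13 (SE; limma adjusted p = 0.0318), a call lost without any 1 of the 6 arrays compared.

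Of the 8 called top-tier genes, 6 fell and 2 rose in the overexpressor. KIN2, a gene induced by cold and abscisic acid, had 10.00, 9.88 and 9.81 in the overexpressor and 11.35, 11.21 and 11.21 in wild type, and fell by 1.36 ± 0.12 (SE; limma adjusted p = 0.00303). BGLU21 had 10.96, 10.75 and 10.96 in the overexpressor and 11.84, 11.997 and 11.90 in wild type, and fell by 1.02 ± 0.08 (adjusted p = 0.00204). AT3G15240, a kinase-related gene, had 11.35, 11.34 and 11.40 in the overexpressor and 11.87, 11.85 and 11.83 in wild type, and fell by 0.49 ± 0.05 (adjusted p = 0.00374). The calls of these 3 genes held when any 1 of the 6 arrays was left out.

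The calls of the other 5 genes depended on single arrays. ZW9, of the TRAF-like family, fell by 0.52 ± 0.07 (adjusted p = 0.017), and its call was lost in 5 of 6 refits without 1 array. ccb382 fell by 0.34 ± 0.06 and the insertion gene AT2G07830 by 0.31 ± 0.05, while AT1G18720 rose by 0.37 ± 0.06 and the aldehyde dehydrogenase gene ALDH2C4 by 0.29 ± 0.05 (adjusted p = 0.0377, 0.0253, 0.037 and 0.0445). These 4 calls were lost in 6 of 6 refits. Of the cell type markers, LBD29 (8.53 in the overexpressor and 7.64 in wild type, limma adjusted p = 0.00518) and the root cap gene AT1G65570 (8.18 in the overexpressor and 6.60 in wild type, adjusted p = 0.00358) rose. LBD29 was 1 of 3 measured lateral root genes, and LBD16 and PUCHI were not called (limma adjusted p = 0.217 and 0.762). AT1G65570 was the 1 measured of 5 root cap genes. No measured gene of the other marker lists was called in the overexpressor, where 1.35% of all probe sets were. In the mutant the adjusted p of LBD29 was 0.919 and that of AT1G65570 0.365.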

How the data were processed

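The authors deposited 1 table of log2 values for 38408 probe sets on 9 arrays, with 0 missing values. Per the submitters' processing notes the values come from RMA, which corrects background, equalises array distributions and summarises probes by medians. No version is stated there or in the labels. The deposited log2 values were used as they stand. Arrays have no read depth, and their number limits the precision.

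Of the probe sets, 16722 had exactly 1 gene in the platform annotation, 759 had several and 20927 were not listed. Symbols were updated through RefSeq genes of TAIR10.1, which matched 16574, while 148 kept the annotation's name. Plastid genes were recognised by their locus tags, and mitochondria-encoded genes by symbol among those without a nuclear locus. The genome of a gene placed by symbol, such as rpl2, is therefore not certain. No probe set was paired with bHLH49 itself, so its level gives no check of the genotypes. Of 146 genes with several probe sets, 85 had sets that differed by more than 1 on the log2 scale, and their mean was used. The values of 5529 probe sets repeat those of another one.

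Means, SDs, percentiles and counts were computed in Python 3.11.15 with pandas 2.3.3 and numpy 2.4.6. Genotypes were compared with limma, version 3.58.1, under R version 4.3.3 on all 9 arrays (functions lmFit and eBayes, no block), tested on simulated data first. Where a gene has several probe sets, the test is that of its brightest.

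Named are the 30 highest and 10 lowest genes, the 10 most variable at or above the 50th percentile, the 10 steadiest at or above the 75th, members of 11 marker lists holding 86 genes, the highest and lowest members of families with 10 or more genes, and called genes of the top tier. The 5 pathway lists and most of the 22 families, found by words in gene symbols, were written after levels had been seen, and 2 family words were corrected because they also matched unrelated genes. Of the families, 2 are not reported here. All members and lists were chosen with earlier results of these data known. Alternatives were another normalization, centring, a filter on dim probe sets, other limma settings, other percentiles and leaving out each array.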

Additional observations from a re-analysis of the deposited data

How the results depend on the processing

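The number of named genes in the lower, intermediate and upper tiers stayed within 1.5 times of the reported one under every alternative tried, and so did the top tier except with percentiles over the named genes alone, which gave 828 in place of 549 because bright probe sets without a named gene no longer count. Without 1 wild-type array, the median SD was 0.1194 to 0.1276 in the lower tier, 0.1057 to 0.1085 in the intermediate, 0.0438 to 0.0536 in the upper and 0.034 to 0.0448 in the top tier, so the order of the tiers held. An SD over fewer arrays tends to have a lower median, so the size of these values cannot be set against those over 3 arrays. With percentiles over named genes, where the SDs were also those of named genes alone, the lower and intermediate tiers had 0.1264 and 0.1048. With the tier bounds unchanged, named genes already had 0.1283 and 0.1003 there. With repeated probe sets counted once, an alternative chosen after seeing the data, the 2 tiers had 0.1399 and 0.1079. Medians of the 36 gene sets with a measured member moved by at most 0.150 under centring, renewed quantile normalization, the highest probe set or leaving out 1 wild-type array, for the beta-glucosidases without wild-type replicate 3. Using a gene's highest probe set gives no median SD over all probe sets, the choice of percentiles does not enter set medians, and counting repeated probe sets once was not run for them.

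Counts of called probe sets were less stable. For overexpressor against wild type, 520 became 798 with trend and robust, 249 with only the 6 arrays compared, and 174 to 245 without 1 array. For mutant against wild type, 9 became 2 with only the 6 arrays, and 1 to 6 without 1 array. With the replicate number as a block, 200 and 1 probe sets were called. Deviations from group means correlated at r between -0.088 and 0.032 for same-numbered arrays of different genotypes. For differently numbered arrays r lay between -0.100 and 0.097. The labels do not say whether same-numbered arrays share a batch, and these correlations cannot settle it. Quantile normalization again, centring on medians and a filter on dim probe sets kept both counts within 1.5 times. The excess of higher over lower calls in the overexpressor turned without its replicate 2 (83 higher, 91 lower) and without its replicate 3 (111 higher, 113 lower). The 12 named genes followed through these refits kept their sign, while LBD29 and AT1G65570 were not followed.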
